A study of Homo sapiens with 6 samples.

Results

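The genes of the nuclear pore and of transport through it were followed in SNU638 cells, a human gastric cancer line, with and without overexpressed LAP2β. The group held 46 genes, namely 27 nucleoporins, 16 import and export receptors and 3 genes of the Ran cycle. Their probes were found by gene symbol in the platform annotation, which gave 65 of the 29377 probes on the arrays. This match used no measured value. Which genes to describe, and the lists set beside them, were chosen with earlier results of these data known. The LAP2β cells were stable transfectants that carried LAP2β cDNA in a pCMV-SPORT6 plasmid, brought in together with pIRES-Neo and selected with G418, and the mock cells were made in parallel with the empty vector. Each line was hybridized to 3 Illumina bead chip arrays, 1 array per sample. Both lines were grown in RPMI1640 medium with serum and had no other treatment named in the labels. The study's text puts a clone label on stable lines where it names SNU638 and PANC1 together, and whether it covers the SNU638 cells on the arrays is not clear. The sources used here also do not say whether the 3 samples of a line were grown separately. The p-values therefore set the difference between the lines only against the spread of these samples, and that spread may be technical. The arrays compare 1 LAP2β line with 1 mock line, so effects of LAP2β and of the line cannot be told apart.

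The nuclear pore complex is the channel through which RNA and protein pass between nucleus and cytoplasm. A scaffold of outer and inner rings lines the opening in the nuclear envelope, transmembrane nucleoporins hold it there, and nucleoporins rich in phenylalanine and glycine repeats fill the channel and bind transport receptors. Importins and exportins, the receptors of the karyopherin family, take up or release their cargo according to whether they bind Ran in its GTP form, which is high in the nucleus, where RCC1 loads Ran with GTP, and low in the cytoplasm, where RANGAP1 stimulates GTP hydrolysis. LAP2β, a product of the TMPO gene, is an inner nuclear membrane protein that binds lamins and chromatin, and proteins of this membrane reach it past the nuclear pore.

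Each array had 44.1% to 46.6% of its probes above background, which here means a detection p-value under 0.01, and the 13323 probes above background on 3 or more of the 6 arrays were tested. The kept TMPO probe, which is not annotated to the β transcript, had log2 signals of 9.62, 9.86 and 9.79 in LAP2β cells, against 9.61, 9.74 and 10.01 in mock cells. These groups overlapped, and no other TMPO probe was above background, so the arrays did not check the labels. All 5 epithelial markers listed (EPCAM, CDH1, KRT8, KRT18 and KRT19) were above background on all arrays, while 0 of the 3 fibroblast, 0 of the 2 endothelial and 0 of the 2 measured leukocyte markers had a kept probe.

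Of the 46 genes, 43 had a kept probe, and each of these was above background on all 6 arrays. Where a gene had several kept probes, the brightest one stands for it unless stated. The remaining 3 were nucleoporins. The probes of NUP210 and POM121, membrane nucleoporins, were above background on no array. That of RANBP2, the large nucleoporin of the cytoplasmic filaments, was above background on 1 LAP2β array and no mock array, with log2 signals of 7.60, 7.54 and 7.87 in LAP2β cells, against 7.29, 7.50 and 7.48 in mock cells. No fold is given for them, and RANBP2 and POM121 have near-identical relatives in the genome whose RNA such a probe may also bind.

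Compared to mock cells, no gene of the pore or of nuclear transport changed in LAP2β cells at an adjusted p under 0.05 from limma (0 of 43 genes, against 1.79% of the 9905 genes tested in all). The smallest adjusted p from limma was 0.104. At an unadjusted p under 0.05, 7 of the 43 were lower (16.3%, against 7.10% of all genes) and 1 was higher (2.33%, against 6.68%), and the methods' t-test called 0 of them after adjustment and 4 before it, against 12.7% of all genes before it. With median scaling or no scaling in place of quantile normalization, 3 genes (NUP155, KPNA3 and KPNA4) and 4 genes (NUP107 as well) were called lower (against 3.39% and 3.29% of all genes), on scales where the median of all probes itself lay at -0.125 and -0.14. The differences were small. The log2 fold changes ran from -0.42 to 0.33, and 95% intervals from limma reached no further than -0.67 and 0.60. Larger changes of these probes thus lay outside their intervals in this fit only. With other processing the values were larger for some genes, such as 0.559 for IPO7 after neqc and -0.6 for NUP155 without normalization. Most values lay on the low side, with 34 of 43 genes (79.1%) below 0, against 52.1% of all genes, and a median log2 fold change of -0.088, against -0.0068 over all genes. This count moved when single arrays were left out, with 26 genes below 0 without mock replicate 3, 28 without LAP2β replicate 1 and 39 without mock replicate 1. Leaving out 1 array also unbalances the sample numbers between the lines. Without the samples numbered 1 in both lines, a setting chosen after the data had been seen, 35 lay below 0. In bulk RNA, fewer cells of a kind and less RNA per cell cannot be told apart.

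**Figure D1:**
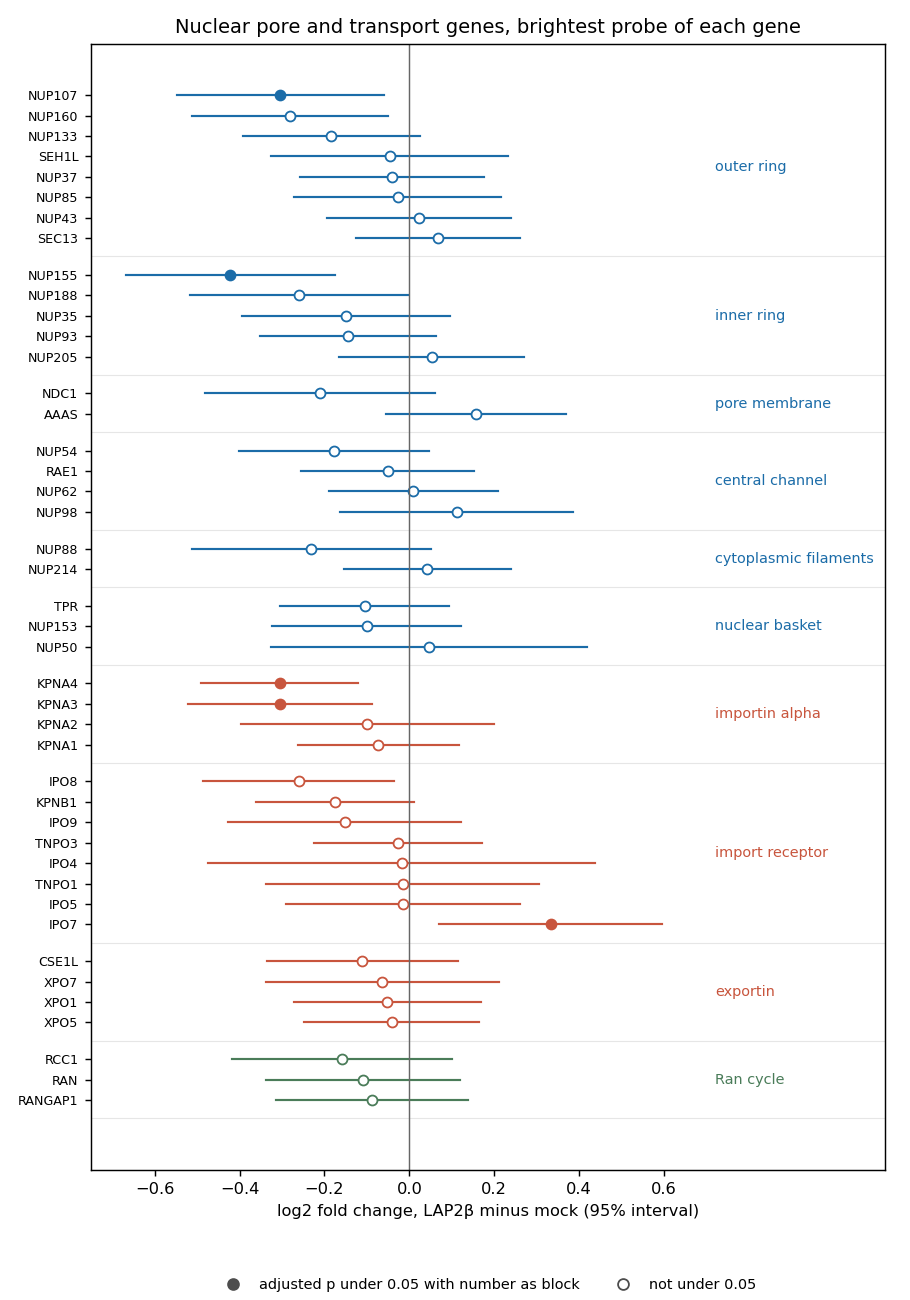
Log2 fold change of each of the 43 measured genes (LAP2β minus mock, horizontal axis) with its 95% interval from limma, grouped by place in the pore or role in transport. The 5 filled points are the genes with an adjusted p under 0.05 when the replicate number was a block, and 34 of the 43 points lie left of 0.

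Same-numbered LAP2β and mock samples varied together across the arrays, and with the replicate number as a block in the fit 4 genes fell and 1 rose. NUP155, NUP107, KPNA3 and KPNA4 were lower (4 of 43, 9.30%, against 2.88% of all genes) and IPO7 was higher (2.33%, against 3.55%). Within the numbered pairs, 20 of the 43 genes were lower in LAP2β cells in all 3 pairs (46.5%, against 22.7% of all genes) and 4 were higher in all 3 (9.30%, against 20.9%). Without regard to pairs, all LAP2β samples lay below all mock samples for 7 genes (16.3%, against 10.5% of all genes), namely NUP155, NUP160, NUP133, KPNA3, KPNA4, KPNB1 and IPO8, and above them for 0 genes, against 9.27%. For each of these 7 an exact two-sided permutation test of 3 samples against 3 gave p = 0.1, the smallest that the design allows. Groups that do not overlap always give this p, so the test adds nothing to the separation by which these genes were picked.

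The outer ring is built from copies of the Y complex, a branched scaffold of the pore. Its members NUP107, NUP160 and NUP133 had the lowest values of the ring. The log2 signal of NUP107 was 11.04, 11.20 and 11.34 in LAP2β cells, against 11.33, 11.53 and 11.63 in mock cells. Only the highest LAP2β sample reached into the mock range, and the difference within the numbered pairs was nearly constant at -0.29, -0.33 and -0.29. Its log2 fold change was -0.30 (standard error, SE, 0.11, limma adjusted p = 0.244, and 0.0406 with the replicate number as a block). NUP160 gave 10.34, 10.60 and 10.45 in LAP2β cells, against 10.61, 10.88 and 10.74 in mock cells. The groups were separated by only 0.01, and again each pair differed by about the same, -0.27, -0.29 and -0.29 (log2 fold change -0.28, SE 0.10, limma adjusted p = 0.254). NUP133 had 10.92, 11.11 and 11.15 in LAP2β cells, against 11.17, 11.29 and 11.28 in mock cells, a log2 fold change of -0.18 (limma adjusted p = 0.446).

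The other 5 genes of the outer ring lay near 0. Their log2 fold changes were -0.047 for SEH1L, -0.041 for NUP37, -0.028 for NUP85, 0.022 for NUP43 and 0.068 for SEC13, which also coats vesicles leaving the endoplasmic reticulum. SEH1L had 3 kept probes, and they did not run one way, with 0.14 and -0.097 for the dimmer ones. The dimmer probe of SEC13 had 0.21 (SE 0.13, limma adjusted p = 0.517), with 10.88, 10.63 and 10.74 in LAP2β cells, against 10.38, 10.42 and 10.83 in mock cells, and the groups overlapped. The interval of the brightest probe of each of these 5 genes included 0.

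Within the inner ring, NUP155 had the lowest value of all 43 genes. NUP155 is a scaffold nucleoporin that contacts the pore membrane. Its log2 signal was 10.02, 10.18 and 10.45 in LAP2β cells, against 10.61, 10.66 and 10.64 in mock cells. The mock samples lay within 0.05 of each other, and the LAP2β samples were all lower but spread more widely (10.22 ± 0.22 in LAP2β cells and 10.64 ± 0.03 in mock cells, SD, n = 3 each). The log2 fold change was -0.42 (SE 0.11, 95% interval -0.67 to -0.18), which is 1.34-fold lower, with an adjusted p of 0.104 from limma and 0.0172 with the replicate number as a block. Without LAP2β replicate 3, the highest of its group, the log2 fold change was -0.54 (limma adjusted p = 0.0479 without the block, and 0.0172 to 0.359 over all settings tried). NUP188, another large scaffold protein of this ring, had 9.27, 9.52 and 9.41 in LAP2β cells, against 9.42, 9.77 and 9.79 in mock cells. Its groups overlapped, and the log2 fold change was -0.26 (limma adjusted p = 0.366). NUP35 and NUP93 had -0.15 and -0.14, and NUP205, a paralog of NUP188, had 0.052.

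**Figure D2:**
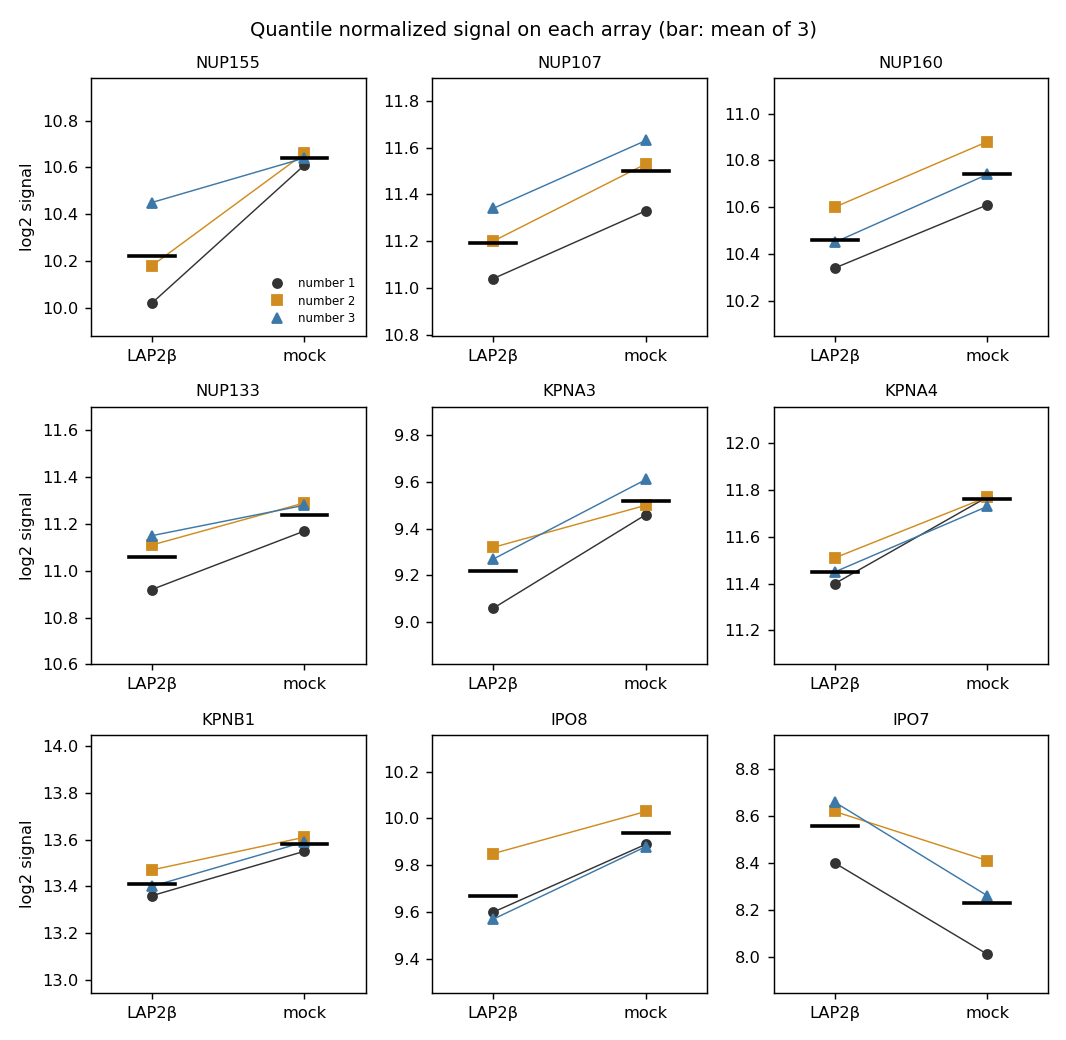
Log2 signal on each array (vertical axis, quantile normalized) for 9 genes, with LAP2β samples on the left and mock samples on the right of each panel. Lines join samples of the same number and bars are means of 3 samples. Shown are the genes whose groups did not overlap, and NUP107 and IPO7, which were called with the replicate number as a block. In 8 panels every line runs lower on the LAP2β side, and for IPO7 every line runs higher. Other genes that were lower or higher in every numbered pair are not shown.

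The other parts of the pore showed values in both directions. Among the membrane nucleoporins and their partners, NDC1, a transmembrane anchor, had a log2 fold change of -0.21 (limma adjusted p = 0.497), and AAAS, which NDC1 holds at the pore and which is mutated in triple A syndrome, had the second highest value of the 43 genes. The log2 signal of AAAS was 8.88, 8.71 and 8.83 in LAP2β cells, against 8.54, 8.64 and 8.77 in mock cells, a log2 fold change of 0.16 (limma adjusted p = 0.522), and the groups overlapped. In the central channel, NUP98, a repeat nucleoporin whose RNA also encodes a scaffold protein, had 8.60, 8.91 and 8.79 in LAP2β cells, against 8.40, 8.80 and 8.76 in mock cells. Its log2 fold change was 0.11 (limma adjusted p = 0.751), and -0.081 on its other kept probe. The brightest probes of NUP54 and NUP62, which sit together in the channel, had log2 fold changes of -0.18 and 0.0090. That of RAE1, an mRNA export factor bound to NUP98, had -0.051, and its other kept probe -0.23 (limma adjusted p = 0.338).

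On the cytoplasmic side, NUP88 had 10.96, 11.07 and 11.15 in LAP2β cells, against 11.00, 11.52 and 11.36 in mock cells, a log2 fold change of -0.23 (limma adjusted p = 0.474). The samples numbered 1 hardly differed, and the groups overlapped. NUP214, its partner there, had a log2 fold change of 0.043. The nuclear basket genes NUP153, NUP50 and TPR had -0.10, 0.046 and -0.11. NUP50 varied far more with the sample number than between the lines, with 9.97, 10.50 and 10.34 in LAP2β cells, against 9.85, 10.41 and 10.41 in mock cells.

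Importin α proteins are adaptors that bind a nuclear localization signal on one side and importin β on the other. The values of all 4 in this group of genes were below 0, and those of KPNA3 and KPNA4, which are close paralogs, were the lowest among its receptors. KPNA4 had 11.40, 11.51 and 11.45 in LAP2β cells, against 11.77, 11.77 and 11.73 in mock cells. The groups lay well apart (11.45 ± 0.06 in LAP2β cells and 11.76 ± 0.02 in mock cells, SD, n = 3 each), and the difference was 1.24-fold (log2 fold change -0.31, SE 0.084, limma adjusted p = 0.120, and 0.0421 with the replicate number as a block). KPNA3 had 9.06, 9.32 and 9.27 in LAP2β cells, against 9.46, 9.50 and 9.61 in mock cells. Its samples did not overlap either (log2 fold change -0.31, SE 0.098, limma adjusted p = 0.185, and 0.0478 with the replicate number as a block). KPNA1 and KPNA2 had log2 fold changes of -0.073 and -0.099. Outside this group, KPNA6 had -0.26 with overlapping samples (limma adjusted p = 0.510), and KPNA5 had no kept probe.

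Among the import receptors of the importin β family, only IPO7 had a value above 0 on its brightest probe, and TNPO1, TNPO3, IPO4 and IPO5 lay near 0. IPO7 carries ribosomal proteins and, together with importin β, linker histone. Its log2 signal was 8.40, 8.62 and 8.66 in LAP2β cells, against 8.01, 8.41 and 8.26 in mock cells. It was higher in every numbered pair, by 0.39, 0.21 and 0.39, while LAP2β replicate 1 lay just under mock replicate 2. The log2 fold change was 0.33 (SE 0.12, 95% interval 0.071 to 0.60), which is 1.26-fold, with an adjusted p of 0.234 from limma and 0.0329 with the replicate number as a block. Among the receptors IPO7 had the lowest signal, and the lowest signal above background on mock array 1 was 7.73. Over all settings the log2 fold change of IPO7 ran from 0.222 to 0.559. IPO8, its closest paralog, had 9.60, 9.85 and 9.57 in LAP2β cells, against 9.89, 10.03 and 9.88 in mock cells. All of its LAP2β samples were below the mock samples, with a log2 fold change of -0.26 (SE 0.10, limma adjusted p = 0.278, and 0.0782 with the replicate number as a block). The intervals of these paralogs, 0.071 to 0.60 for IPO7 and -0.49 to -0.036 for IPO8, did not overlap, and the difference itself was not tested.

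KPNB1, which is importin β itself, had 13.36, 13.47 and 13.40 in LAP2β cells, against 13.55, 13.61 and 13.59 in mock cells. The samples of each line lay close together and did not overlap, and the log2 fold change was -0.17 (limma adjusted p = 0.413). IPO9, an importin of core histones and actin, had 9.14, 9.61 and 9.53 in LAP2β cells, against 9.49, 9.68 and 9.58 in mock cells, where LAP2β replicate 1 was low and the groups overlapped (log2 fold change -0.15, limma adjusted p = 0.646). The remaining import receptors TNPO1, TNPO3, IPO4 and IPO5 had values of -0.016, -0.027, -0.018 and -0.015, and the dimmer kept probe of TNPO1 had 0.082. For IPO4, a histone importin, this near-zero value was the least precise of all, since its signal was 9.98, 10.52 and 10.44 in LAP2β cells, against 9.86, 10.37 and 10.78 in mock cells, and its 95% interval ran from -0.47 to 0.44.

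The exportins differed little between the lines. Log2 fold changes were -0.11 for CSE1L, which returns importin α to the cytoplasm, -0.052 for XPO1, the exporter of proteins with a leucine-rich signal, -0.042 for XPO5, which carries microRNA precursors, and -0.064 for XPO7. The dimmer probe of CSE1L had -0.26 (limma adjusted p = 0.454). The Ran cycle genes were below 0 as well. RAN gave 14.29, 14.56 and 14.45 in LAP2β cells, against 14.43, 14.52 and 14.68 in mock cells (log2 fold change -0.11, limma adjusted p = 0.706), and its other probe gave 0.018. RANGAP1 had 13.08, 13.24 and 13.28 in LAP2β cells, against 13.13, 13.42 and 13.31 in mock cells (log2 fold change -0.088, limma adjusted p = 0.767). For RCC1 the signals were 8.13, 8.39 and 8.28 in LAP2β cells, against 8.23, 8.41 and 8.64 in mock cells (log2 fold change -0.16, limma adjusted p = 0.606). The groups overlapped for all 3 Ran cycle genes.

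Set side by side, nucleoporins and transport receptors had nearly the same median. The median log2 fold change was -0.076 over 24 nucleoporins and -0.068 over 16 receptors. Both were smaller than the spread of the class medians between samples of a line (SD 0.106 for nucleoporins and 0.123 for receptors). These SDs are between single arrays and include the variation with the sample number that the lines shared. With each array left out the nucleoporin median ran from -0.137 (without mock replicate 1) to -0.0414 (without mock replicate 3), and the receptor median from -0.183 (without mock replicate 1) to -0.0094 (without LAP2β replicate 1). The difference of -0.0077 was smaller than the spread of this difference between samples of a line (SD 0.042), and its sign turned without LAP2β replicate 2 (0.039) or mock replicate 1 (0.046). Values below 0 were found for 16 of 24 nucleoporins and 15 of 16 receptors, and these receptors include TNPO1, TNPO3, IPO4 and IPO5, which lay within 0.03 of 0. The contrast of the classes was not tested. From 35 other genes of nuclear transport listed beside these, such as NUP58, the export adaptor ALYREF and the Ran-binding protein RANBP1, 28 were measured. Of these 0 passed the test and 3 had an unadjusted p under 0.05 (10.7%, against 13.8% of all genes), and 21 lay below 0, with a median of -0.097. Among the 3 was NUP58, whose kept probe was above background on 1 LAP2β array and 3 mock arrays. Its signal in LAP2β cells thus lay near background, and the size of its difference is uncertain.

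**Figure D3:**
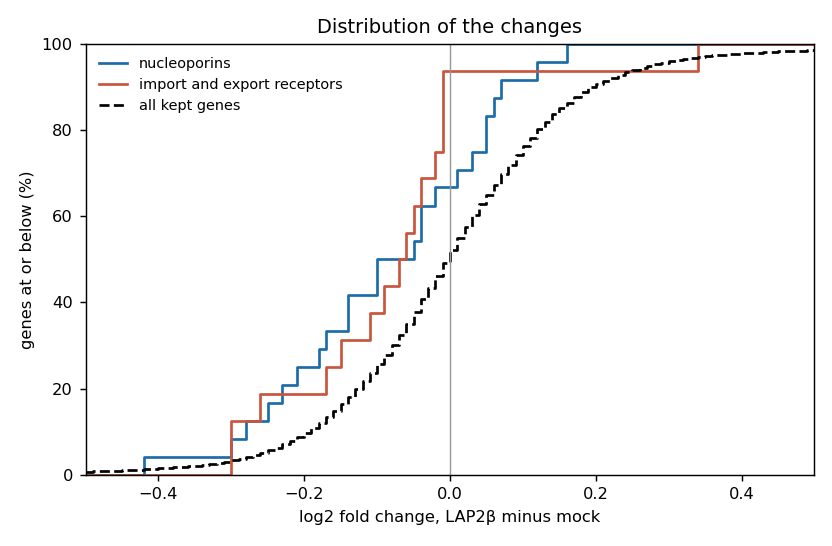
Share of genes (vertical axis, percent) at or below each log2 fold change (LAP2β minus mock, horizontal axis) for 24 nucleoporins, 16 import and export receptors and all 9905 genes tested. The nucleoporin and receptor lines lie left of the line for all genes over most of the range, with medians of -0.076 and -0.068, against -0.0068.

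Many of these genes varied together with the sample number. In both lines the sample numbered 1 was the lowest of the 3 for 30 of the 43 genes (69.8%, against 21.8% of all genes). The median deviation of the nucleoporins from their own mean over 6 arrays was -0.15, -0.01 and 0.00 on the LAP2β arrays, against -0.09, 0.12 and 0.13 on the mock arrays. Receptors gave -0.18, 0.06 and -0.04 in LAP2β cells, against -0.11, 0.12 and 0.11 in mock cells. Both classes thus sat low on the arrays numbered 1, and within each number they sat lower in the LAP2β line. A list of 17 proliferation genes, among them MKI67, TOP2A and CCNB1, showed -0.16, -0.01 and 0.03 in LAP2β cells, against -0.13, 0.11 and 0.13 in mock cells. It was lowest on number 1 in both lines for 14 of its 17 genes (82.4%), and its median log2 fold change was -0.085. By the brightest probe 0 of the 17 passed the test between the lines. MKI67, above background on 2 LAP2β and 3 mock arrays, was the 1 with an unadjusted p under 0.05 (5.88%, against 13.8% of all genes). Dimmer kept probes of PCNA, CDK1 and MCM7 had log2 fold changes of -0.43, -0.28 and -0.30 (limma unadjusted p = 0.0098, 0.047 and 0.043, adjusted p = 0.183, 0.361 and 0.348). No dimmer kept probe of this list was higher in LAP2β cells. The part of proliferation in the levels of the pore and transport genes was not tested. The 28 other transport genes did not follow the number in this way, with sample 1 lowest in both lines for 3 (10.7%). Without the samples numbered 1 in both lines, a setting chosen after the data had been seen, 0 of the 43 genes passed the test, the medians were -0.088 for nucleoporins and -0.098 for receptors, and 35 of 43 genes lay below 0.

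**Figure D4:**
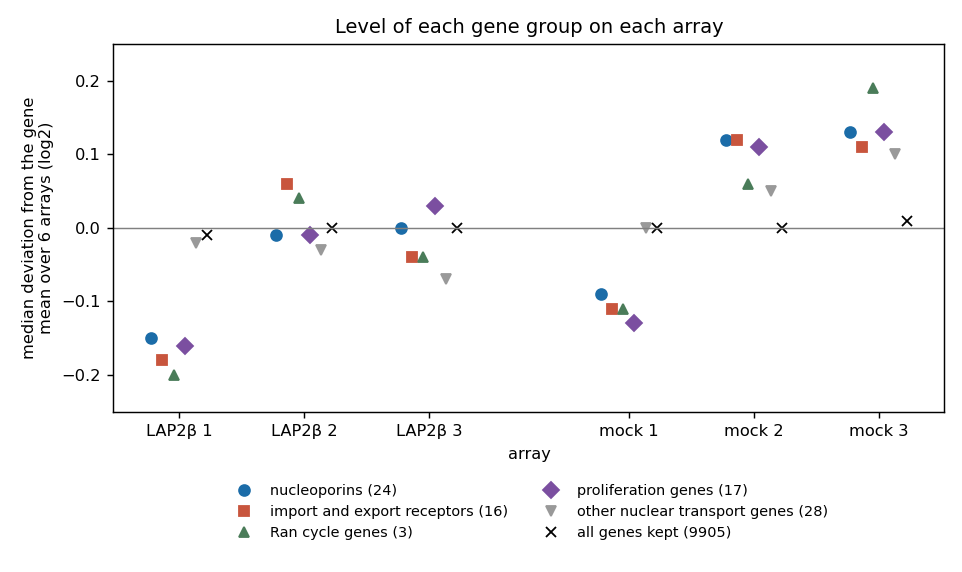
Median deviation of each gene group from the gene means over 6 arrays (log2, vertical axis) on each array (horizontal axis, LAP2β arrays on the left), with the number of genes in brackets. Nucleoporins, receptors, Ran cycle and proliferation genes all lie between -0.20 and -0.09 on the arrays numbered 1 of both lines, while the median of all genes stays within 0.01 of 0.

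The promoter windows of the genes that passed the test with the replicate number as a block are shown because these 5 genes were called there. RefSeq windows (GRCh38.p14) of 300 bases, 250 before and 50 after an annotated start, were on hand for 42 of the 46 genes (54 windows), and not for KPNA4, KPNB1, NUP43 and XPO7. Both strands were searched, overlaps allowed, and capitals mark every match to one of 5 motifs. These were CCGGAAG, a binding motif of ETS transcription factors, and GCGCATG, which is part of the palindrome bound by NRF1. The GC box was searched as GGGCGG and the TATA box as TATAAA, and the CCAAT box by the letters of its name.
NUP155, chr5:37371057-37371356, minus strand: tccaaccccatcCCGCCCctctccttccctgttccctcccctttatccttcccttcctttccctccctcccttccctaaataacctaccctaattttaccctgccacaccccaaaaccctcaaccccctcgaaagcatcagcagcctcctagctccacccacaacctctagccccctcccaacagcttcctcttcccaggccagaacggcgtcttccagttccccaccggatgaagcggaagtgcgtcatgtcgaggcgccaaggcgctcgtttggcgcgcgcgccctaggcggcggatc
NUP107, chr12:68686728-68687027, plus strand: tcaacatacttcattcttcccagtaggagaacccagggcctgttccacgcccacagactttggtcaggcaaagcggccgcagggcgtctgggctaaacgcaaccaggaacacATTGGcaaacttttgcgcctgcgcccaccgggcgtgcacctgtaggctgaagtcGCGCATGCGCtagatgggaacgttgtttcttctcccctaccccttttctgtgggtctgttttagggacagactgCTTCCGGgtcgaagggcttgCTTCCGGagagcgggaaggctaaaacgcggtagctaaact
KPNA3, chr13:49792633-49792932, minus strand: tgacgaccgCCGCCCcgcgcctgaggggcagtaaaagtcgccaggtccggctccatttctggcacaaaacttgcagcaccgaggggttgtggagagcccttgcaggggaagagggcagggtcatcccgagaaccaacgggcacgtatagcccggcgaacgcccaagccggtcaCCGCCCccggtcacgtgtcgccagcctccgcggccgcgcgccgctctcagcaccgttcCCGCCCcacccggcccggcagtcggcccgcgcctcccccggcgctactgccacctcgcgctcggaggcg
IPO7, chr11:9384402-9384701, plus strand: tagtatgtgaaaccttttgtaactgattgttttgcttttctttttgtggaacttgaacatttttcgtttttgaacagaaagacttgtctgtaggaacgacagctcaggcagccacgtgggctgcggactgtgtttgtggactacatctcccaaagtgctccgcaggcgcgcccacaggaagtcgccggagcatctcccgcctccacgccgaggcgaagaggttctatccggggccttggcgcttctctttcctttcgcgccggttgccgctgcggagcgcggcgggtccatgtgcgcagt

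These 4 windows had little in common. The window of NUP107 held the NRF1 motif, in 2 matches that overlap on opposite strands, the ETS motif at 2 places and a CCAAT box, that of KPNA3 held 3 GC boxes, that of NUP155 held 1 GC box and that of IPO7 held none of the motifs. Over all windows of these genes the ETS motif was found in 15 of 54 (27.8%), against 10.3% of all 35116 windows and 12.8% of the windows of protein-coding genes. It was found in 12 of 34 nucleoporin windows (35.3%) and 2 of 15 receptor windows (13.3%). The NRF1 motif was in 8 of 54 windows (14.8%, against 4.43% of all and 5.26% of protein-coding windows), 5 of them of nucleoporins, and the TATA box in 1 (1.85%, against 11.5% and 9.47%). The GC box was in 53.7% of the windows, above the 45.0% of all windows and below the 56.3% of protein-coding ones, and the CCAAT box in 35.2%, against 34.6% and 34.7%. Some genes had more than 1 window, those of SEC13, NUP98 and NUP160 overlapped, the median share of G and C was 63.5%, against 58.7% of all and 62.3% of protein-coding windows, and a match in these letters says nothing about binding.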

How the data were processed

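Total RNA of 3 LAP2β and 3 mock samples of SNU638 was labelled, hybridized to Illumina bead chips and scanned, and the authors processed the arrays with BeadStudio 3.0. They deposited linear intensity values before and after quantile normalization, each with a detection p-value from BeadStudio. Background subtraction is not given in the sources used here. All 29285 probes of the series matrix equal the deposited normalized intensity values within 0.001. In the tables, 2 detection columns matched no sample and were not used, so detection of mock replicate 3 was set from its signal ranks and the median detection curve of the other arrays, a rule taken after the files were seen.

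The intensity values before normalization were quantile normalized and log2 transformed with limma 3.58.1 in R 4.3.3. Probes with a detection p under 0.01 on at least 3 of 6 arrays, 13323 in all (9905 genes), were fitted with lmFit and eBayes, LAP2β minus mock, with Benjamini-Hochberg adjustment over all of them. Annotation symbols were updated by gene ID through a reference table of GRCh38.p14, and 27988 of 29377 probes had 1 symbol. The genes described and the lists were chosen with earlier results of these data known. Named are, by a rule, the 6 nucleoporins and 6 receptors with the smallest adjusted p, the Ran cycle genes, the 3 highest and 3 lowest values and the genes with no kept probe. Values of the other genes were added after they had been seen.

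Same-numbered samples deviated together from their line means (correlations 0.545, 0.228 and 0.368 over tested probes, each of the 6 arrays being closest to its own number). The numbers were therefore taken to pair the samples. Numbers 2 and 3 were less clearly told apart, with correlations of 0.158 for LAP2β replicate 2 with mock replicate 3 and 0.142 for LAP2β replicate 3 with mock replicate 2. The main fit had no block for the number, and the spread between numbers stayed in its error. The range of the number means was wider than the difference between the lines for 31 of the 43 genes (72.1%, against 70.3% of all genes). A range over several means tends to exceed a single difference, so this count does not measure an effect of the number. Neither the labels nor the paper say what a number shares. The alternatives tried were the deposited normalized values in either form, neqc, normexp, median scaling or no normalization, other filters, eBayes with trend and robust options, the replicate block, the mean over a gene's probes, the methods' t-test, stricter thresholds and each array left out. Slides and scan dates are not given, so neither entered a fit. The number of arrays limits the precision.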

Additional observations from a re-analysis of the deposited data

How the results depend on the processing

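Over all kept probes, 220 passed the test (66.4% of them higher). The count was 145 after neqc, 145 with a fold of at least 1.5 as well, 113 at an adjusted p under 0.01, 537 with median scaling (21.2% higher), 521 without normalization between arrays (20.9% higher) and 821 with the replicate number as a block. The methods' t-test called 1617 before adjustment and 1 after it. Leaving out each array in turn gave 88 to 274, with 88 without mock replicate 2, 93 without LAP2β replicate 2, 127 without LAP2β replicate 3 and 138 without LAP2β replicate 1.

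The count of nuclear pore and transport genes past the test was 0. It was 5 with the replicate block, which changed no other call of these genes, 3 with median scaling (NUP155, KPNA3 and KPNA4, all lower), 4 without normalization (NUP107 as well), 4 by the unadjusted t-test and 0 to 1 with each array left out, where the 1 was NUP155 without LAP2β replicate 3. Median scaling and no normalization moved the median of all kept probes to -0.125 and -0.14. The nucleoporin median was -0.238 and -0.254 there, or -0.113 in both relative to all probes, and the receptor median -0.219 and -0.234, or -0.0941 in both relative to all probes. The difference between the class medians ran from -0.0406 to 0.0463 with each array left out. Of the 28 other transport genes measured, 1 passed with median scaling, 1 without normalization and 4 by the unadjusted t-test. Of the 17 proliferation genes, 1 passed with the block (MKI67) and 1 by the unadjusted t-test. Among all genes, 3.39% were called lower with median scaling and 3.29% without normalization. The block called 6.43% of all genes and the unadjusted t-test 12.7%.

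Over all settings the adjusted p ran from 0.0172 to 0.359 for NUP155, 0.0406 to 0.569 for NUP107, 0.0399 to 0.441 for KPNA3, 0.0218 to 0.374 for KPNA4 and 0.0329 to 0.483 for IPO7, and none of the 5 changed sign. NUP98 turned to -0.0069 without normalization, and with each array left out it ran from -0.0146 (without mock replicate 1) to 0.197. TMPO, at -0.181 and -0.196 with median scaling and without normalization, ran from -0.121 to 0.0812 (without mock replicate 3) with each array left out and was 0.0351 without LAP2β replicate 1. The cause of these differences was not tested. Probes near background, such as that of RANBP2, give no usable fold.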
